A study of Rattus norvegicus with 25 samples.

Results

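The genes described here encode parts of motile cilia or mark the ependyma, and they were followed across the 3 arms of a rat study of trapidil given with levodopa. Members were gene symbols that start with Cfap, Dnah, Dnai, Dnaaf, Drc, Rsph, Tekt or Spag and a digit, or that stand on a list of 11 further symbols (Foxj1, Tmem212, Ccdc153, Ak7, Tp73, Mlf1, Spata18, Adgb, Hydin, Rarres2 and Dynlrb2), with a summed count of at least 100 over 25 libraries. Of 81 symbols in the table that matched, 71 reached that sum, out of 28909 gene names in all. Besides their symbols, members were chosen by this summed count over all arms, which was 172 for Tekt5 and 185 for Cfap221 just inside the limit, and 81 for Dnah8 and 36 for Spag6 just outside it. Foxj1 was not analysed here.

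Female Sprague Dawley rats received the dopamine neuron toxin 6-OHDA (6-hydroxydopamine) and were then randomised. The levodopa arm (n = 5) was given the dopamine precursor levodopa at 6 mg/kg once daily, named together with the decarboxylase inhibitor benserazide in the series title. A second arm (n = 10) had trapidil added to this at 7.5 mg/kg 2 times daily, and the third (n = 10) at 15 mg/kg 2 times daily. Trapidil is a vasodilator and platelet inhibitor. All animals were thus lesioned and given levodopa, and no unlesioned or untreated arm was analysed here. Dosing lasted 14 days, and on day 15 the striatum on the lesioned side was taken at 1 hour from dosing, with the labels not stating before or after. Polyadenylated RNA of whole homogenised striatum was sequenced, so fewer ciliated cells and less RNA per ciliated cell cannot be told apart. The labels do not tie each library to an animal one by one, and p-values measure the spread between these libraries.

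Motile cilia are built on an axoneme, a ring of microtubule doublets around a central pair, and beat when the dynein arms on the doublets slide them past each other. Radial spokes and the nexin-dynein regulatory complex pass signals between the central pair and the dyneins, and inner microtubule proteins such as tektins stiffen the doublets. In the forebrain, motile cilia are carried chiefly by the ependymal cells that line the ventricles, whose lateral wall borders the striatum and the subventricular zone, a niche of neural progenitors, while the choroid plexus forms a second ventricular epithelium. Most other brain cells bear at most a primary cilium, which lacks dynein arms and a central pair.

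Total counts ran from 16535828 to 19274429 in the levodopa arm, from 10838513 to 18794463 at 7.5 mg/kg and from 13862132 to 20532290 at 15 mg/kg. The 7.5 mg/kg replicate 1 was the shallowest library, and levodopa replicate 2 had the highest mitochondrial share, 17.3%. Striatal neuron markers were abundant in every library, their summed level lying between 10470 and 18559 CPM (counts per 1000000 after scaling of the libraries, called CPM throughout). Slc17a7, a transporter of cortical glutamatergic neurons, stood apart at 36.3 CPM in levodopa replicate 5 and at 46.1 and 29.6 CPM in 7.5 mg/kg replicates 1 and 6, against at most 5.55 CPM elsewhere.

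Most members moved together from library to library, and the libraries differed far more within the levodopa and 7.5 mg/kg arms than within the 15 mg/kg arm. The median over the 71 members of log2(CPM + 1), taken relative to each gene's mean over all libraries, was -0.76, -0.10, -0.93, 0.46 and -0.97 in levodopa replicates 1 to 5. Replicates 1, 3 and 5 were thus low, replicate 2 was intermediate and replicate 4 lay above most trapidil libraries. At 7.5 mg/kg the same quantity ran from -0.92 in replicate 6 to 0.73 in replicate 9 (median -0.02), and at 15 mg/kg from -0.09 to 0.71 (median 0.28). Levodopa replicate 4 was the highest of its arm for 57 members and lay above the 15 mg/kg median for 51. The SD of log2(CPM + 1) was larger in the levodopa arm than at 15 mg/kg for 62 members, and larger at 7.5 than at 15 mg/kg for 66. No read was counted for 6 members in levodopa replicate 3, 10 in levodopa replicate 5 and 11 in 7.5 mg/kg replicate 6, where a count of 0 allows up to 0.179, 0.159 and 0.173 CPM (3 counts, counting error only).

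**Figure D1:**
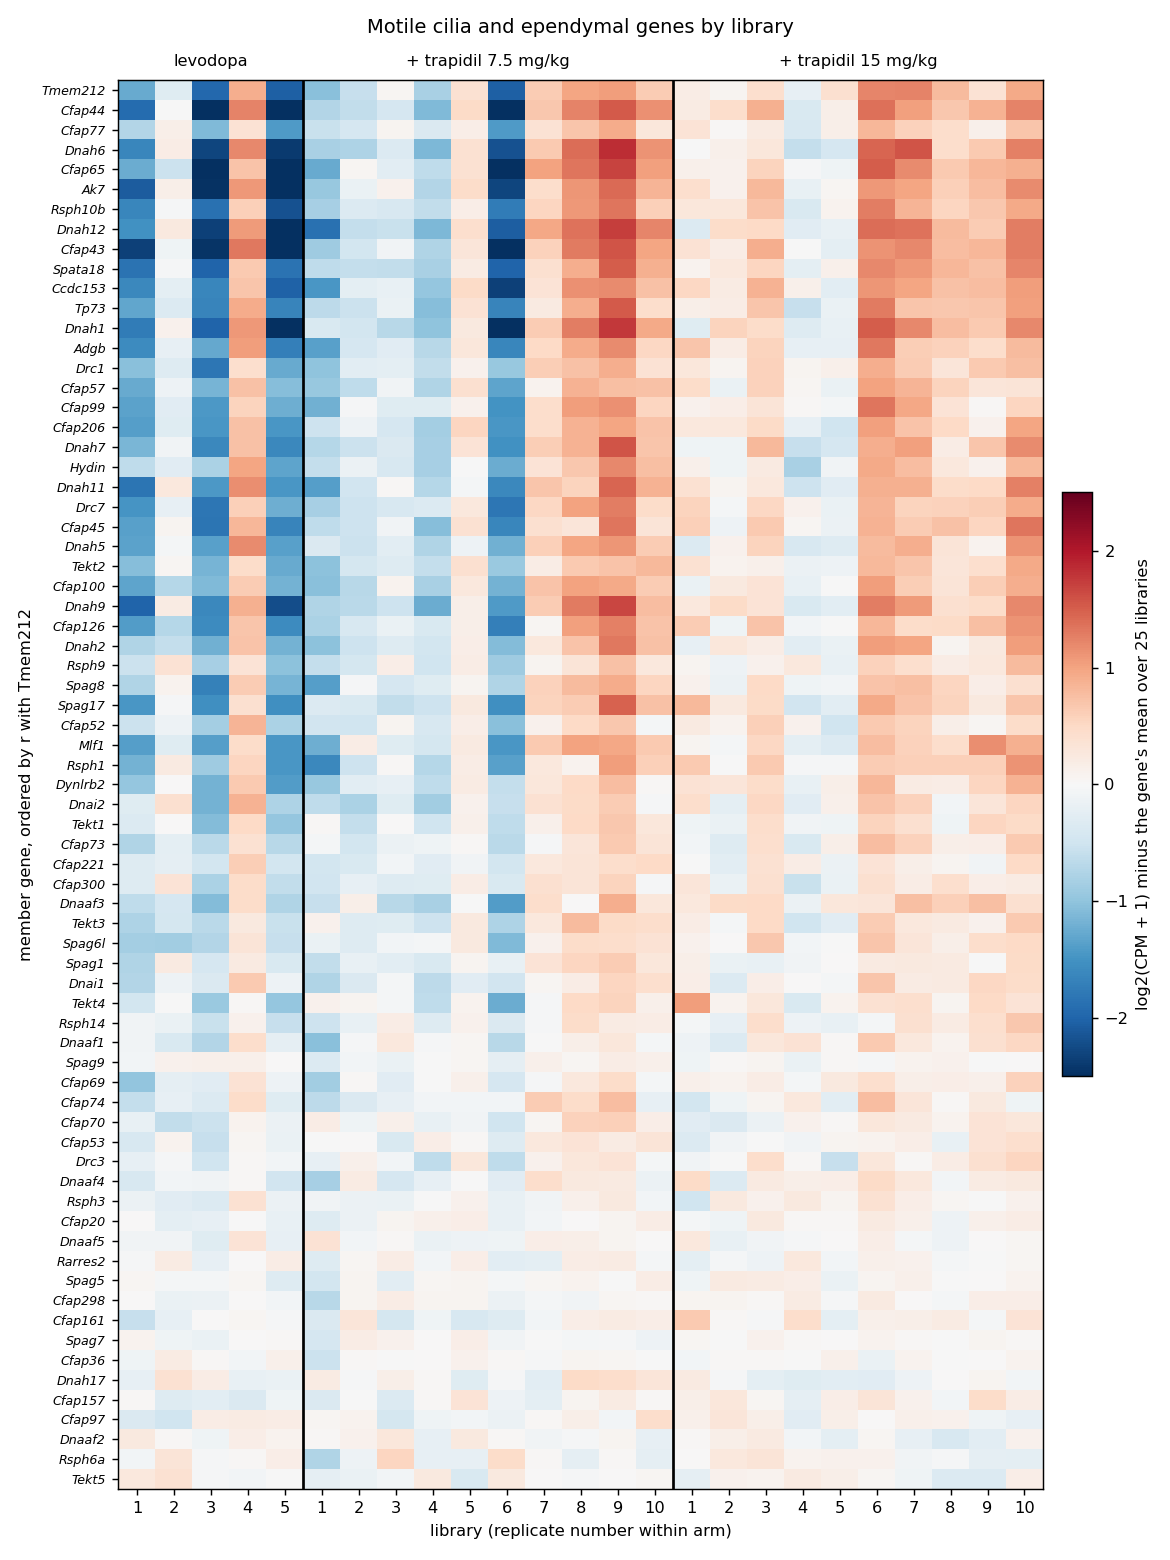
Each row is a member and each column a library, coloured by log2(CPM + 1) minus the gene's mean over the 25 libraries, with rows ordered by Pearson r with Tmem212. The upper rows are blue in levodopa replicates 1, 3 and 5 and in 7.5 mg/kg replicate 6, and red in levodopa replicate 4 and 7.5 mg/kg replicate 9, while the lowest rows, such as Tekt5, do not follow that pattern.

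The comparison of 15 mg/kg trapidil with levodopa alone asked whether these genes differed with the higher dose added. Of the 71 members 64 had a positive log2 fold change, the median was 0.90 and the range -0.40 to 1.72, where 50.2% of the 14142 genes tested were positive with a median of 0.00. With edgeR's quasi-likelihood test and Benjamini-Hochberg adjustment over those genes, 0 members passed at 0.05, while 0.304% of the genes tested passed as higher and 1.00% as lower. Before adjustment, 30 members were higher at p below 0.05, against 8.26% of the genes tested, and 0 lower, against 11.2%. Changes beyond 2-fold upward were fitted for 33 members, against 1.18% of the genes tested. All 10 libraries of the arm lay above the levodopa mean for 33 members, against 7.46%, but no member had a range clear of the levodopa range, as 0.297% of the genes tested had on the higher side and 0.410% on the lower. Members varied together, with a median Pearson r of 0.66 over all pairs after arm means were subtracted. Counts of members, here and by group below, are therefore not independent results. edgeR estimates one spread per gene over the 3 arms, and for 62 members the levodopa libraries spread more than the 15 mg/kg libraries, so its standard errors can be too small here.

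Spag6l, a scaffold of the central pair, came nearest to the threshold. Its levels were 9.09, 8.88, 9.90, 21.5 and 11.2 CPM in levodopa replicates 1 to 5 and 16.3 to 28.1 CPM (median 20.2) at 15 mg/kg, so only replicate 4 reached the range of the treated libraries. Its log2 fold change came to 0.81 ± 0.22 (SE; edgeR adjusted p = 0.0561), with 10 of 10 libraries above the levodopa mean. Drc1, a core subunit of the nexin-dynein regulatory complex, was at 2.20, 4.26, 0.895, 7.76 and 1.75 CPM in the levodopa libraries and at 5.90 to 11.4 CPM (median 7.93) at 15 mg/kg. Again levodopa replicate 4 alone was inside the range of the treated libraries, and the log2 fold change of 1.25 ± 0.38 (SE) did not pass (edgeR adjusted p = 0.0751, 10 of 10 libraries).

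Other models moved these results across the threshold. DESeq2 called Spag6l (0.81, adjusted p = 0.0135) and Drc1 (1.26, adjusted p = 0.0422) higher and 0 members lower, where it called 1.53% of the genes tested as higher and 2.91% as lower. Before adjustment it had 28 members higher at p below 0.05, against 8.73%. limma-voom with sample quality weights called 13 members, all higher, where it called 2.11% of the genes tested as higher and 2.95% as lower, among them Drc1 (2.02), Dynlrb2 (1.78), Dnaaf3 (1.46) and Rsph10b (2.78). It had 55 members higher at an unadjusted p below 0.05, against 10.0%. With only the 2 arms in edgeR's fit, 3 members passed, Spag6l, Drc1 and Dnaaf3, against 0.902%. At an adjusted p below 0.10, 2 passed, Spag6l and Drc1, against 1.92%. Without levodopa replicate 4, edgeR called 30 members higher, against 2.67% of the genes tested, and the members' median became 1.51. Tmem212 (2.80, adjusted p = 0.0291), Tp73 (3.09, adjusted p = 0.0324), Mlf1 (3.08, adjusted p = 0.0301) and Spag6l (1.12, adjusted p = 0.00924) were among these 30. Spag6l and Drc1 passed without 7.5 mg/kg replicate 1 (against 1.33%), and Spag6l without 7.5 mg/kg replicate 6 (0.765%) or 15 mg/kg replicate 4 (0.807%). Leaving out any other single library gave 0 calls.

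At 7.5 mg/kg, 63 members had a positive log2 fold change against levodopa, with a median of 0.52 and a range of -0.42 to 1.46, where 51.1% of all genes tested were positive. With edgeR 0 members passed, as 0 of all genes did on the higher side (0%) and 0.0283% on the lower. Before adjustment, 5 were higher at p below 0.05, against 5.02%, and 0 lower, against 6.64%. For 0 members did all 10 libraries lie above the levodopa mean, against 1.90%. More than 2-fold upward changes were fitted for 11 members, against 0.453%, and no member's range was clear of the levodopa range, against 0.0283% of genes on the higher and 0.0636% on the lower side. DESeq2 also called 0 (0.0753% of the genes tested higher, 0.377% lower), as did limma-voom (0.134% higher, 0.587% lower), with 4 members (5.45% of the genes) and 48 members (8.20%) higher at an unadjusted p below 0.05. The smallest adjusted p was 0.358, shared by Spag6l (0.55 ± 0.22, SE) and Cfap70 (0.40 ± 0.16, SE). Without levodopa replicate 4 the median became 1.13, still with 0 calls.

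Between the doses, 66 members were higher at 15 than at 7.5 mg/kg and 5 lower, with a median of 0.28, where 48.8% of all genes were positive. With edgeR 0 members passed (0.0283% of the genes tested passed as higher, 0% as lower), as with DESeq2 (0.0424% higher, 0% lower) and limma-voom (0.0849% higher, 0.00707% lower). Each of the 3 tools had 2 members higher at an unadjusted p below 0.05, against 1.49%, 1.58% and 2.23% of the genes tested. With edgeR these were Cfap161 (0.28 ± 0.13, SE) and Dnaaf3 (0.56 ± 0.27, SE), with 0 members lower, against 2.14%. For 0 members did the doses differ by more than 2-fold upward, against 0.0566%. The median moved to 0.17 without 7.5 mg/kg replicate 6 and to 0.47 without 7.5 mg/kg replicate 9, the lowest and the highest libraries of that arm. Both trapidil contrasts use the same 5 levodopa libraries, so their values for a gene are not independent of each other.

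**Figure D2:**
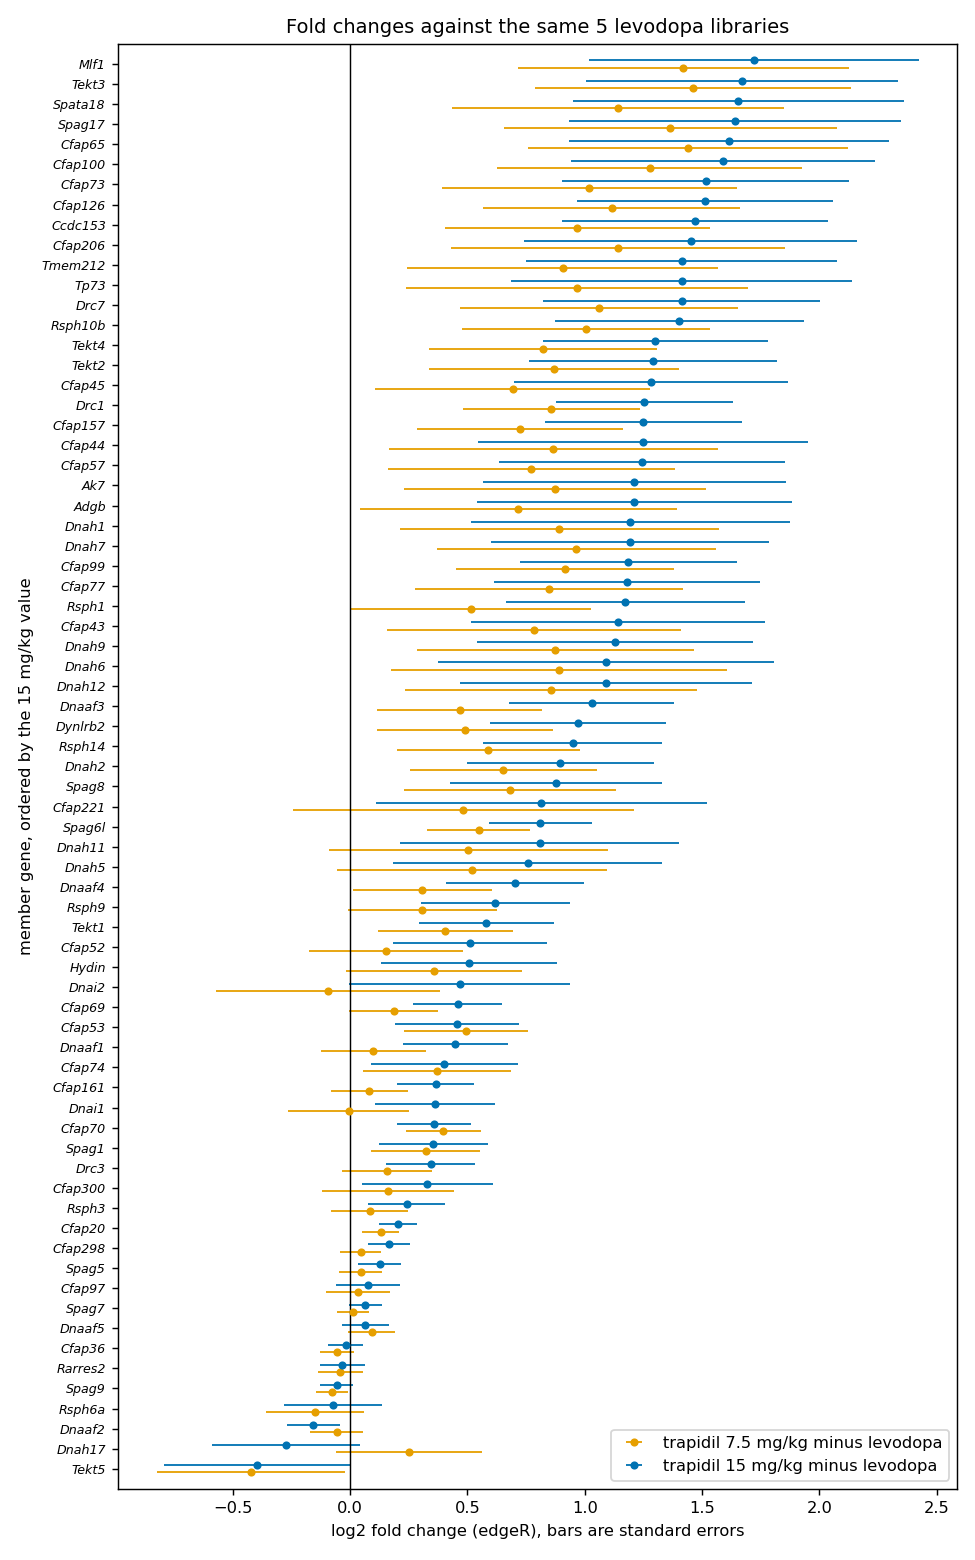
Points are edgeR log2 fold changes of each member against the levodopa arm at 7.5 mg/kg (orange) and 15 mg/kg (blue) with standard errors as bars, ordered by the 15 mg/kg value. Values run from 1.72 (Mlf1) to -0.40 (Tekt5) at 15 mg/kg, and both series share the 5 levodopa libraries.

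Because most members varied as one set across libraries, the deposited gene names were matched to RefSeq promoters of the rat build GRCr8 to show what their start sites share. All 71 members matched a RefSeq gene (Ccdc153 as a synonym of Drc12), and 63 had windows from 250 bases before to 50 bases after a start site, 91 windows in all. Regulatory factor X (RFX) proteins bind the X-box, an inverted repeat known from promoters of ciliary genes. A simplified X-box of 14 bases, which opens with GTTNCC and closes with a looser inverted copy of it, was searched on both strands. It was in 16 of 91 member windows (17.6%), 1 window each in 16 genes, and in 2.07% of all 33469 windows of that length. The stretches below show it in capitals for 9 of the 12 members whose match lay before the start site, 7 that vary with Tmem212 and 2 that do not, each read along the strand of its gene so that some matches appear as the reverse complement.
Cfap44, - strand, chr11:69789906-69789942: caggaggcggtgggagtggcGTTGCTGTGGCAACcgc
Dnah12, + strand, chr16:1944670-1944723: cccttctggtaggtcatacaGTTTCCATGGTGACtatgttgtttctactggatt
Hydin, + strand, chr19:55146432-55146465: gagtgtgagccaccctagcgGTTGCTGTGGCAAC
Drc7, - strand, chr19:9967193-9967228: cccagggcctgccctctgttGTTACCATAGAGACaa
Dnah2, - strand, chr10:54766038-54766091: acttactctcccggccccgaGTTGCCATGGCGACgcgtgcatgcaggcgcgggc
Tekt1, - strand, chr10:57479127-57479180: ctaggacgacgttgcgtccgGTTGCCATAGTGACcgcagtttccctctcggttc
Spag6l, + strand, chr11:97677756-97677809: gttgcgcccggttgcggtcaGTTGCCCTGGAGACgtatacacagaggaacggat
Cfap298, - strand, chr11:43677580-43677632: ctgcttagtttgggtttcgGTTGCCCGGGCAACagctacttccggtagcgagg
Dnaaf2, - strand, chr6:93406378-93406431: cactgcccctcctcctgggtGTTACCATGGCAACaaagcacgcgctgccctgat
Cfap44, Dnah12, Hydin, Drc7, Dnah2, Tekt1 and Spag6l varied with Tmem212 at r of 0.80 to 0.97, and Cfap298 and Dnaaf2 at 0.30 and 0.02. The members not shown were Cfap300 (r = 0.83), Dnaaf5 (r = 0.47) and Spag5 (r = 0.36). The match was thus present in genes with and without the shared pattern.

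Of 10 letter patterns searched, all chosen with the results known, the other X-box forms overlap the first. The short forms GTTGCC and GTTGCCA, the second containing the first, were in 27 windows (29.7%, against 12.2% of all) and 14 windows (15.4%, against 4.56%). A stricter X-box of 14 bases was in 2 windows (2.20%, against 0.472%), and 3 forms of 10 bases were in 15, 3 and 2 windows (against 6.29%, 1.08% and 0.538% of all). Forkhead factors, the family of Foxj1, bind sequences such as TGTTTAC, which was in 5 windows (5.49%, against 3.78%). The looser TGTTTNC, which contains it, was in 23 (25.3%, against 21.1%) and TGTTTGT in 3 (3.30%, against 6.42%). A match is a description of letters in a window, and binding was not measured.

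Among the regulators, Tp73, a p53-family transcription factor that drives the multiciliated cell programme, was at 0.275, 1.48, 0, 5.01 and 0 CPM in levodopa replicates 1 to 5. Its levels ran from 0 to 8.09 CPM (median 2.24) at 7.5 mg/kg and 1.13 to 6.82 CPM (median 4.06) at 15 mg/kg. Both arms overlapped levodopa replicate 4, and the log2 fold change at 15 mg/kg, 1.41 ± 0.73 (SE), did not pass (edgeR adjusted p = 0.285). Mlf1, named after its fusion in myeloid leukaemia, had the highest fold change of the members, 1.72 ± 0.70 (SE; edgeR adjusted p = 0.175), its mean level being 0.829 ± 1.22 CPM in the levodopa arm (SD, n = 5) against 2.76 ± 1.28 CPM in the 15 mg/kg arm (SD, n = 10).

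Tmem212, a membrane protein gene used as an ependymal marker, stood in for Foxj1 in the tests of a single gene, a choice made after its values were seen. It was at 0.716, 2.34, 0.0597, 6.76 and 0 CPM in levodopa replicates 1 to 5, at 0 to 7.46 CPM (median 3.81) at 7.5 mg/kg and at 2.56 to 8.70 CPM (median 4.47) at 15 mg/kg. Levodopa replicate 4 lay above 7 of the 10 libraries at 15 mg/kg, while replicates 1, 2, 3 and 5 lay below all 10. On log2(CPM + 1) the means were 2.58 at 15 mg/kg and 1.11 with levodopa, a difference of 1.47 with an unadjusted exact two-sided permutation p = 0.00699 over libraries (3003 arrangements, smallest possible 0.000333). Leaving out each library in turn gave differences of 1.19 to 1.93 and exact permutation p from 0.000999 to 0.022. In the fit over all genes the log2 fold change came to 1.41 ± 0.66 (SE; edgeR adjusted p = 0.235).

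Of the other listed ependymal symbols, Ccdc153, Spata18 and Adgb shared that pattern (r with Tmem212 of 0.95, 0.95 and 0.94). Ccdc153, a coiled-coil protein gene that RefSeq names Drc12, was at 1.05, 4.26, 1.01, 9.13 and 0.531 CPM in the levodopa libraries and at 4.22 to 12.3 CPM (median 9.46) at 15 mg/kg, which gave a log2 fold change of 1.47 ± 0.57 (SE; edgeR adjusted p = 0.150). Spata18, which encodes a protein of mitochondrial quality control, had 1.65 ± 0.71 (SE) and Adgb, which encodes the haemoglobin relative androglobin, 1.21 ± 0.67 (SE). Rarres2, which encodes the secreted protein chemerin, did not share the pattern. It was at 16.5, 19.8, 14.5, 17.0 and 19.4 CPM with levodopa and at 14.2 to 20.5 CPM (median 16.6) at 15 mg/kg, the arms covering one range, with a log2 fold change of -0.03 ± 0.10 (SE; edgeR adjusted p = 0.890).

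**Figure D3:**
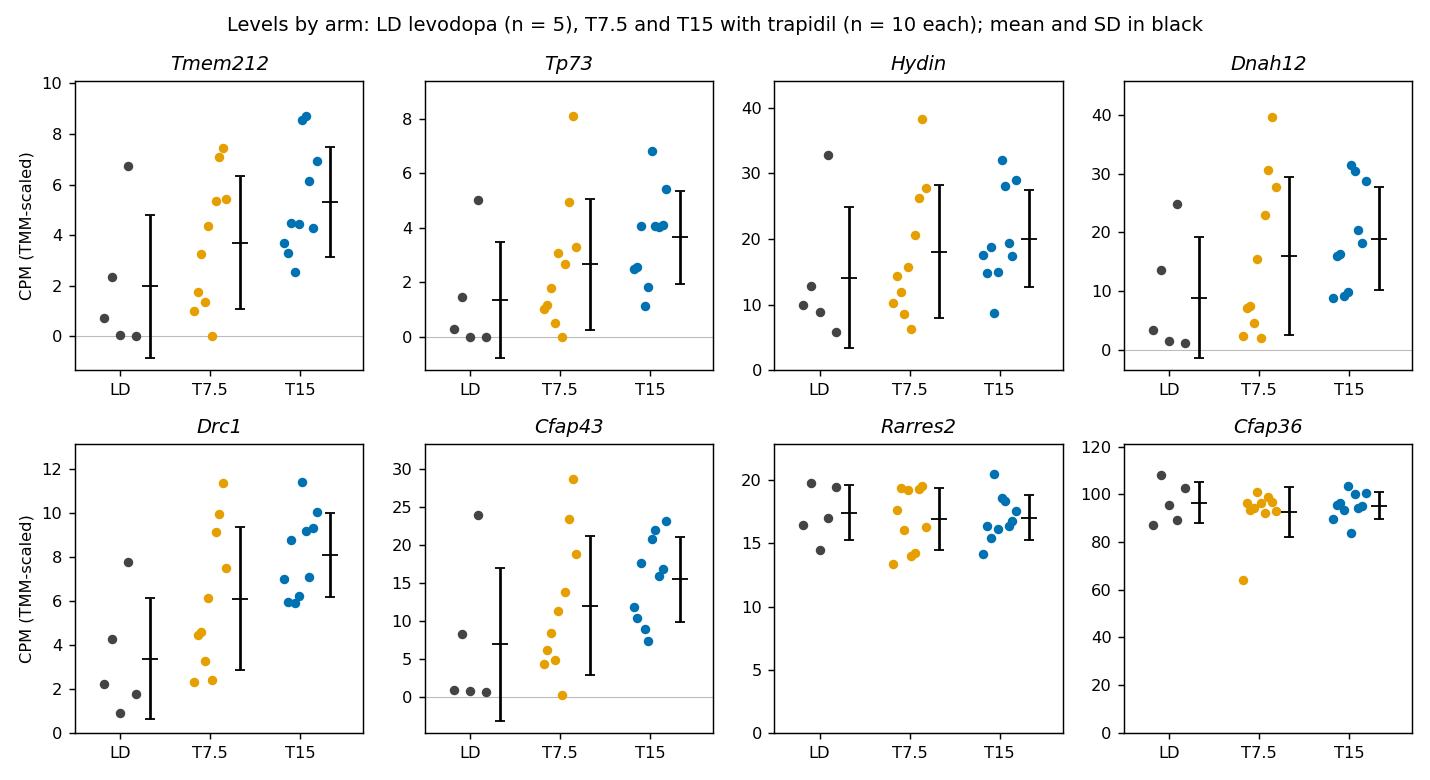
Each point is the CPM of a library in the levodopa (LD), 7.5 mg/kg (T7.5) or 15 mg/kg (T15) arm for 8 members, with the mean and SD in black. Tmem212, Tp73, Hydin, Dnah12, Drc1 and Cfap43 have a high levodopa point, replicate 4, above the other 4 levodopa libraries, while Rarres2 and Cfap36 cover one range in all arms apart from 1 low 7.5 mg/kg library of Cfap36 at 64.2 CPM.

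The 6 outer dynein arm members include heavy chains, the motors that set beat frequency, and the intermediate chains Dnai1 and Dnai2 that anchor them. Dnah9, the heavy chain of the distal arms, was at 0.771, 7.22, 1.31, 12.2 and 0.531 CPM in the levodopa libraries, at 1.68 to 21.7 CPM (median 5.42) at 7.5 mg/kg and at 4.46 to 16.3 CPM (median 8.58) at 15 mg/kg. Its log2 fold change at 15 mg/kg came to 1.13 ± 0.59 (SE; edgeR adjusted p = 0.292). Dnah11 (0.81 ± 0.59, SE) and Dnah5 (0.76 ± 0.57, SE) varied likewise across libraries (r with Tmem212 of 0.93 and 0.92). The intermediate chains had smaller values, 0.36 ± 0.26 (SE) for Dnai1 and 0.47 ± 0.47 (SE) for Dnai2, and at 7.5 mg/kg both were slightly negative (-0.01 and -0.09). Dnah17, known as the heavy chain of the sperm flagellum, was at 0.441, 1.17, 0.895, 0.475 and 0.478 CPM in the levodopa libraries and at 0.359 to 0.937 CPM (median 0.563) at 15 mg/kg, and did not follow Tmem212 (r = 0.15). None of the 6 reached an unadjusted p below 0.05 at 15 mg/kg.

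All 6 inner dynein arm members varied with Tmem212 (r from 0.88 to 0.96) and had positive values in both trapidil arms. Dnah12, a single-headed inner arm heavy chain, was at 3.31, 13.6, 1.43, 24.9 and 1.12 CPM in the levodopa libraries and at 1.97 to 39.5 CPM (median 11.4) and 8.74 to 31.5 CPM (median 17.2) in the 2 trapidil arms. The lowest 15 mg/kg library lay above levodopa replicates 1, 3 and 5 and below replicates 2 and 4, and the log2 fold change came to 1.09 ± 0.62 (SE; edgeR adjusted p = 0.337). Dnah2, a heavy chain of the double-headed inner arm, had 0.90 ± 0.40 (SE), and of the further inner arm chains Dnah1 had 1.19 ± 0.68 (SE), Dnah6 1.09 ± 0.72 (SE) and Dnah7 1.19 ± 0.59 (SE). Dynlrb2, a roadblock-type dynein light chain, was at 1.32, 3.58, 1.01, 6.17 and 0.744 CPM with levodopa and at 3.03 to 7.37 CPM (median 4.76) at 15 mg/kg. Its log2 fold change of 0.97 ± 0.38 (SE) gave the smallest adjusted p of this group, 0.151 with edgeR.

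Factors that preassemble dyneins in the cytoplasm varied less with Tmem212, at a median r of 0.62 over 8 members. Cfap300 and Dnaaf3 came nearest to its pattern (r = 0.83 and 0.82). Dnaaf3 had a log2 fold change of 1.03 ± 0.35 (SE; edgeR adjusted p = 0.104), its mean level being 2.75 ± 1.72 CPM in the levodopa arm (SD, n = 5) against 5.64 ± 1.16 CPM in the 15 mg/kg arm (SD, n = 10). Dnaaf1 (0.45 ± 0.22, SE), Dnaaf4 (0.70 ± 0.29, SE), Spag1 (0.35 ± 0.23, SE) and Cfap300 (0.33 ± 0.28, SE) had smaller values. Cfap298 was at 44.2, 38.9, 39.7, 44.6 and 41.8 CPM with levodopa and at 42.5 to 51.4 CPM (median 46.1) at 15 mg/kg, which gave a log2 fold change of 0.17 ± 0.09 (SE). The values of Dnaaf5 (0.06 ± 0.10, SE; r = 0.47) and Dnaaf2 (-0.16 ± 0.11, SE; r = 0.02) lay on opposite sides of 0. For Dnaaf2 the levodopa libraries, 8.98, 7.59, 6.86, 8.44 and 8.02 CPM, fell inside the spread at 15 mg/kg, 5.42 to 8.90 CPM (median 7.35), apart from replicate 1.

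Radial spokes gave 3 of 7 members higher at an unadjusted p below 0.05 at 15 mg/kg, against 8.26% of all genes tested. Rsph10b was at 1.16, 5.55, 0.835, 9.08 and 0.478 CPM in the levodopa libraries, at 0.983 to 15.8 CPM (median 5.32) at 7.5 mg/kg and at 4.10 to 15.3 CPM (median 9.12) at 15 mg/kg. Its log2 fold change at 15 mg/kg came to 1.40 ± 0.53 (SE; edgeR adjusted p = 0.142). Rsph1 (1.17 ± 0.51, SE) and Rsph9 (0.62 ± 0.32, SE), both of the spoke head, followed Tmem212 at r of 0.88 and 0.90. Rsph14 had 0.95 ± 0.38 (SE) and Cfap206, at the spoke base, 1.45 ± 0.71 (SE), while Rsph3 of the spoke stalk had 0.24 ± 0.16 (SE). Rsph6a, a spoke head paralogue known from testis, differed little between arms, with 2.43 ± 0.387 CPM (SD, n = 5), 2.16 ± 0.822 CPM and 2.32 ± 0.422 CPM (SD, n = 10 each), and had r = -0.10 with Tmem212.

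In the nexin-dynein regulatory complex, which links neighbouring doublets, Drc7 resembled Drc1. Drc7 was at 0.331, 2.22, 0.0597, 4.64 and 0.584 CPM in the levodopa libraries and at 2.30 to 6.07 CPM (median 4.44) at 15 mg/kg, which gave a log2 fold change of 1.41 ± 0.59 (SE; edgeR adjusted p = 0.185). Drc3, at 5.23, 6.11, 4.12, 6.39 and 5.90 CPM with levodopa and 3.82 to 9.52 CPM (median 6.83) at 15 mg/kg, varied less (0.34 ± 0.19, SE; r = 0.61).

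The central pair and its projections hold 11 members, all with positive values in both trapidil arms (51.1% and 50.2% of all genes tested were positive at 7.5 and 15 mg/kg) and 7 higher at an unadjusted p below 0.05 at 15 mg/kg, against 8.26%. Hydin, the giant projection protein whose loss causes hydrocephalus in mice, was at 9.97, 12.9, 8.89, 32.7 and 5.84 CPM in the levodopa libraries and at 6.24 to 38.3 CPM (median 15.1) and 8.67 to 32.0 CPM (median 18.1) in the trapidil arms. It followed Tmem212 across libraries (r = 0.93), yet its log2 fold change at 15 mg/kg came to 0.51 ± 0.37 (SE; edgeR adjusted p = 0.478). Ak7, an adenylate kinase of the axoneme, was at 0.551, 6.23, 0.179, 13.0 and 0 CPM with levodopa and at 4.77 to 13.9 CPM (median 9.51) at 15 mg/kg (1.21 ± 0.65, SE). Cfap65 (1.61 ± 0.68, SE) and Spag17 (1.64 ± 0.71, SE) had the largest values of the group, and Cfap99 had 1.19 ± 0.46 (SE). Cfap157, with a summed count of only 188 over the 25 libraries, was an exception that rests on few reads. It differed between arm means without following Tmem212 (r = 0.14). It was at 0.441, 0.123, 0.179, 0.106 and 0.319 CPM in the levodopa libraries, at 0.0917 to 0.780 CPM (median 0.424) at 7.5 mg/kg and at 0.205 to 0.937 CPM (median 0.575) at 15 mg/kg, with a log2 fold change of 1.25 ± 0.42 (SE) that did not pass. Cfap70, at 14.4, 10.4, 11.2, 17.6 and 14.9 CPM in the levodopa libraries, had 0.36 ± 0.16 (SE), Cfap69 0.46 ± 0.19 (SE), Cfap74 0.40 ± 0.31 (SE) and Cfap221 0.82 ± 0.71 (SE).

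Tektins and the other inner microtubule proteins form the largest group, with 12 members, of which 11 had positive values at 15 mg/kg, against 50.2% of all genes tested, and 8 were higher at an unadjusted p below 0.05, against 8.26%. Tekt1 was at 3.25, 4.38, 1.55, 6.54 and 1.75 CPM in the levodopa libraries and at 3.79 to 6.92 CPM (median 5.06) at 15 mg/kg, which gave a log2 fold change of 0.58 ± 0.29 (SE; edgeR adjusted p = 0.263). Larger values belonged to Tekt3 (1.67 ± 0.66, SE), Cfap126 (1.51 ± 0.55, SE), Tekt4 (1.30 ± 0.48, SE), Tekt2 (1.29 ± 0.53, SE), Cfap45 (1.28 ± 0.58, SE) and Cfap77 (1.18 ± 0.57, SE). Cfap52 (0.51 ± 0.33, SE), Cfap53 (0.46 ± 0.26, SE) and Cfap161 (0.36 ± 0.16, SE; r = 0.21) had smaller ones. Cfap20, a protein of the inner junction of doublets in motile and primary cilia, was at 39.0, 32.4, 33.3, 38.2 and 33.6 CPM with levodopa and at 35.3 to 45.8 CPM (median 40.7) at 15 mg/kg (0.20 ± 0.08, SE; edgeR adjusted p = 0.153). Tekt5, known from sperm, was lowest in the ranking at -0.40 ± 0.40 (SE), with 0.502 ± 0.216 CPM (SD, n = 5) and 0.378 ± 0.194 CPM (SD, n = 10).

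Proteins that tether inner dyneins, and other Cfap genes, split into a set that varied with Tmem212 and a set that did not. Cfap43 and Cfap44, partners in the tether of an inner arm, followed Tmem212 at r of 0.96 and 0.97. Cfap43 was at 0.992, 8.33, 0.835, 24.0 and 0.744 CPM in the levodopa libraries, at 0.347 to 28.7 CPM (median 9.90) at 7.5 mg/kg and at 7.40 to 23.2 CPM (median 16.4) at 15 mg/kg, with replicate 4 above all 15 mg/kg libraries and a log2 fold change of 1.14 ± 0.63 (SE; edgeR adjusted p = 0.320). Cfap44 had 1.25 ± 0.70 (SE), Cfap57 1.24 ± 0.61 (SE), Cfap73 1.52 ± 0.61 (SE) and Cfap100 1.59 ± 0.65 (SE). Cfap36 was at 87.3, 108, 95.6, 89.3 and 102 CPM with levodopa and 83.9 to 103 CPM (median 95.4) at 15 mg/kg, overlapping ranges with a log2 difference of -0.02 ± 0.07 (SE), and Cfap97 was like it (0.07 ± 0.14, SE; r = 0.09).

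Finally, 4 genes that share the Spag prefix were kept apart from the groups above. Spag9, a scaffold of kinase and motor complexes in many cells, was at 343, 390.3, 393, 392 and 364 CPM with levodopa and 320.0 to 388 CPM (median 366) at 15 mg/kg (-0.06 ± 0.07, SE), and its small deviations still followed Tmem212 at r = 0.65. Spag7 (0.07 ± 0.07, SE) and Spag5, a mitotic spindle protein (0.13 ± 0.09, SE), had values near 0. Spag8, which is known as an inner microtubule protein of motile axonemes and was not counted among them above, followed Tmem212 (r = 0.90) with 0.88 ± 0.45 (SE).

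Members differed by degree in their likeness to Tmem212. The Pearson r of arm-centred log2(CPM + 1) with Tmem212 over the 25 libraries had a median of 0.87 and ran from -0.15 (Tekt5) to 0.97 (Cfap44). These r values describe libraries that share depth and scaling, and 29 of the 70 other members were at 0.9 or more, 43 at 0.8 or more and 14 below 0.5. Over all 2485 pairs of members the median r was 0.66. The 44 members at 0.8 or more, Tmem212 included, were all positive at 15 mg/kg with a median of 1.19, the 13 from 0.5 to 0.8 had a median of 0.40 with 12 positive, and the 14 below 0.5 a median of 0.06 with 8 positive. The last set holds Rarres2, Cfap36, Cfap97, Cfap157, Cfap161, Cfap298, Dnaaf2, Dnaaf5, Dnah17, Rsph6a, Spag5, Spag7, Tekt5 and 1 member just under the limit, Cfap20.

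The biological coefficient of variation, edgeR's estimate of the spread between libraries of an arm beyond counting noise, had a median of 0.478 over the members and 0.124 over all genes tested. It was at or above the 90th percentile of all genes, 0.290, for 49 of 71. Its median was 0.710 for the members at r of 0.8 or more, 0.263 for those from 0.5 to 0.8 and 0.121 for those below 0.5. A log2 difference of 1 in members at r of 0.8 or more is therefore measured with a far larger error than in those below 0.5.

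**Figure D4:**
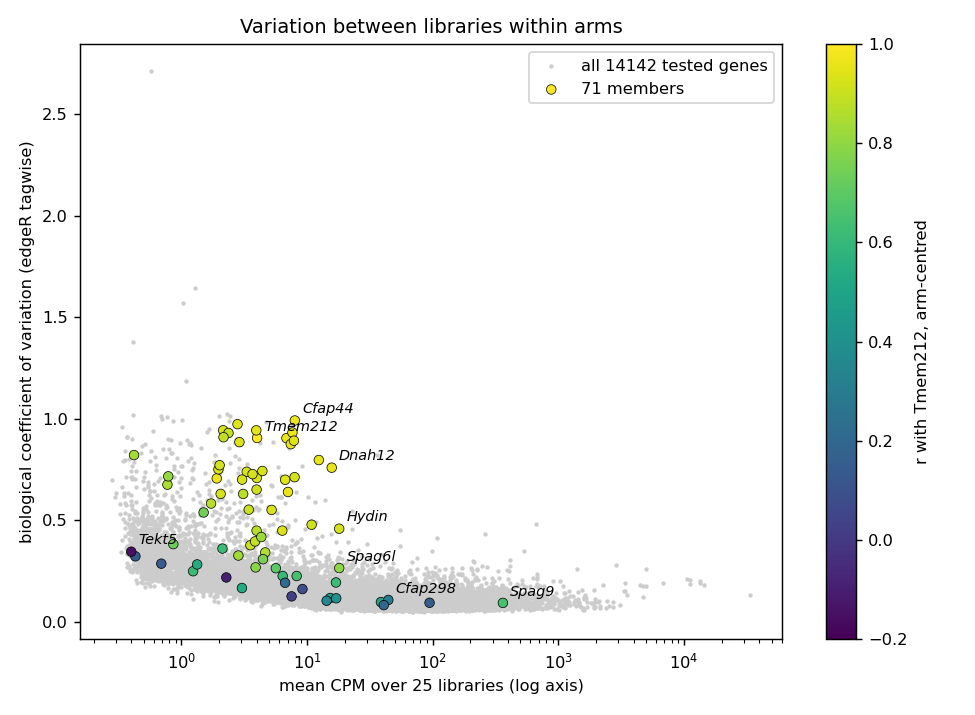
The biological coefficient of variation (edgeR, per gene) is plotted against mean CPM on a log axis for all 14142 tested genes (grey) and the 71 members, coloured by r with Tmem212. Members that follow Tmem212 (yellow) lie above most genes of like abundance, and members such as Spag9 and Tekt5 lie among the grey points.

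Further motile cilia genes, a list of 68 found in the table, were read in the same fit. Of 55 tested, 1 rose at 15 mg/kg and 0 fell with edgeR, where 0.304% of all genes tested rose and 1.00% fell. The median was 0.77, with 51 positive (50.2% of all genes) and 28 higher at an unadjusted p below 0.05 (8.26% of all genes). At 7.5 mg/kg and between doses 0 passed, with 50 and 48 positive, against 51.1% and 48.8% of all genes. The gene that rose was Ccdc180, a coiled-coil gene, at 7.82, 9.62, 9.78, 12.5 and 8.61 CPM in the levodopa libraries and 15.2 to 20.6 CPM (median 18.3) at 15 mg/kg. Its arms did not overlap, with a log2 fold change of 0.88 ± 0.21 (SE; edgeR adjusted p = 0.0383; 10 of 10 libraries). Leaving out 1 library at a time kept its value between 0.81 and 0.99, but it passed in only 13 of 25 such fits, failing without any of levodopa replicates 1, 2, 3 and 5 or of 8 libraries at 15 mg/kg (highest edgeR adjusted p = 0.125, without levodopa replicate 2). Primary cilium genes, 28 tested, had a median of 0.12 at 15 mg/kg with 25 positive (50.2% of all genes) and 0 called (0.304% higher, 1.00% lower). Tmem67, of the ciliary transition zone, came nearest (0.35 ± 0.10, SE; edgeR adjusted p = 0.0674).

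Cell markers of the ventricular wall and its surroundings were read beside the members. Subventricular progenitor and neuroblast genes had a median of 0.61 over 12 tested at 15 mg/kg and a median r with Tmem212 of 0.76. Of these genes 11 were positive, against 50.2% of all genes tested, and 0 were called, against 0.304% higher and 1.00% lower. Their summed level was 60.8 to 107 CPM with levodopa, 58.5 to 117 CPM at 7.5 mg/kg and 73.5 to 114 CPM at 15 mg/kg. Dlx1, a homeobox gene of this lineage, came nearest to the threshold (0.85 ± 0.23, SE; edgeR adjusted p = 0.0582). Ependymal genes outside the cilium were mixed at 15 mg/kg, with Vim at 0.43 ± 0.19 (SE; r = 0.82), Cd24 at 0.21 ± 0.12, Prom1 at -0.34 ± 0.12 and Tm4sf1 at -0.36 ± 0.12 (SE), 0 of 4 tested called. Choroid plexus genes, 7 of 18 abundant enough to test, summed to 5.45 to 36.5 CPM with levodopa, 7.01 to 18.8 CPM at 7.5 mg/kg and 9.26 to 17.8 CPM at 15 mg/kg. At 15 mg/kg 4 of the 7 were positive, against 50.2% of all genes tested, with a median of 0.60. Only 1 was called lower (1.00% of all genes tested) and 0 higher (0.304%). The median r of this list with Tmem212 was 0.43.

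Ttr, the defining transcript of the choroid plexus, was at 0, 23.4, 0.298, 0.528 and 0.106 CPM in levodopa replicates 1 to 5, at most 2.02 CPM at 7.5 mg/kg and at most 0.487 CPM at 15 mg/kg, and Otx2 had no count in any library. Its call as lower at 15 mg/kg (-5.11 ± 1.09, SE; edgeR adjusted p = 0.0217) rests on levodopa replicate 2, without which it was -0.79 (edgeR adjusted p = 0.846). Oligodendrocyte genes fell in 5 of 10 at 15 mg/kg, where 1.00% of all genes tested fell. None of the 10 was positive, against 50.2% of all genes, and the median was -0.61. The 5 ran from Opalin (-0.74 ± 0.16, SE; edgeR adjusted p = 0.0217) to Mal (-0.56 ± 0.13, SE; edgeR adjusted p = 0.0299). Without levodopa replicate 2 none of these 5 passed (edgeR adjusted p from 0.126 to 0.181). Their summed level was 10802 to 19765 CPM with levodopa, 7452 to 16515 CPM at 7.5 mg/kg and 6590 to 13928 CPM at 15 mg/kg. Of the other lists 0 genes passed: astrocyte markers had 0 of 11 positive (median -0.15), striatal neuron markers 10 of 12 (0.07) and cortical neuron markers 3 of 6 (-0.07). The part of these markers in the members' values was not tested.

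Across libraries Tmem212 was set against genes of neighbouring cell types and the mitochondrial share, with p-values adjusted over 18 relations, of which 15 are given. Dcx, a microtubule protein of migrating neuroblasts, followed Tmem212 most closely, with arm-centred r = 0.88 and rho = 0.91 over 25 libraries (permutation p = 1e-05 for both, the smallest possible, adjusted 9e-05), and r = 0.88 without the 2 libraries farthest from the Tmem212 median. Within the 7.5 mg/kg arm r was 0.95 and rho 0.99 (permutation p = 1e-05 for both, adjusted 9e-05), and within the 15 mg/kg arm r was 0.74 and rho 0.73 (permutation p = 0.0118 and 0.0203, adjusted 0.0266 and 0.0522). Without their 2 farthest libraries these r were 0.97 and 0.81. Libraries rich in Tmem212 were thus rich in Dcx in each trapidil arm.

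Ppp1r1b, which encodes the striatal projection neuron protein DARPP-32, ran the other way, with arm-centred r = -0.49 and rho = -0.53 (permutation p = 0.0118 and 0.00685, adjusted 0.0266 and 0.0247). Its r was -0.74 at 7.5 mg/kg (rho = -0.81, permutation p = 0.0153 and 0.00725, adjusted 0.0305 and 0.0247) and -0.52 at 15 mg/kg (rho = -0.48, permutation p = 0.129 and 0.168, adjusted 0.179 and 0.252). Without the 2 farthest libraries the arm-centred r was -0.59, and within the arms it was -0.76 and -0.55.

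Slc17a7 had arm-centred r = -0.56 and rho = -0.37 (permutation p = 0.00313 and 0.0718, adjusted 0.0188 and 0.129). At 7.5 mg/kg its r was -0.71 and became 0.37 without replicates 1 and 6, on which the relation rests, and at 15 mg/kg r was -0.07. For Ttr the arm-centred r was 0.10 (rho = 0.15, permutation p = 0.621 and 0.468), with -0.40 at 7.5 mg/kg and 0.77 at 15 mg/kg (rho = 0.55, permutation p = 0.00973 and 0.105, adjusted 0.0266 and 0.172; r = 0.55 without the 2 farthest libraries), where every library was below 0.5 CPM of Ttr. For the mitochondrial share the arm-centred r was 0.21 (rho = 0.19, permutation p = 0.303 and 0.361, adjusted 0.364 and 0.499), and 0.48 without the 2 farthest libraries. At 7.5 mg/kg its r was 0.21, or 0.38 without the 2 farthest. At 15 mg/kg r was 0.64 (rho = 0.62, permutation p = 0.0456 and 0.0592, adjusted 0.0684 and 0.118), which did not pass 0.05 after adjustment. Without the 2 farthest libraries of that arm r was 0.87, a value for which no p was computed.

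**Figure D5:**
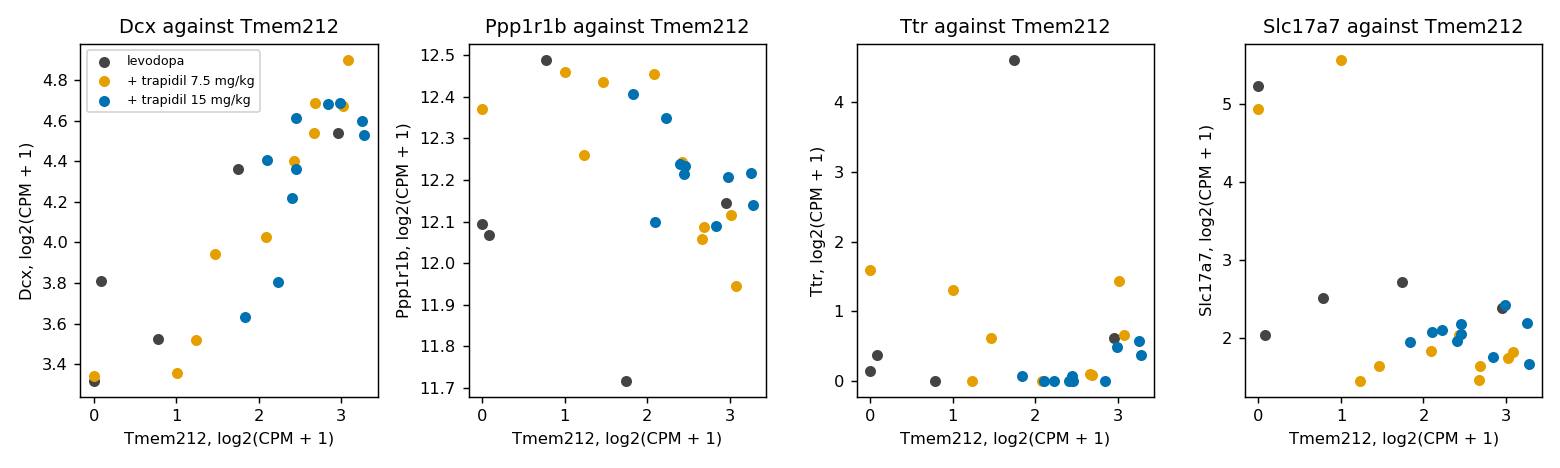
Each panel plots log2(CPM + 1) of Dcx, Ppp1r1b, Ttr or Slc17a7 against that of Tmem212, 1 point per library, coloured by arm. Dcx is higher where Tmem212 is higher in both trapidil arms (r = 0.95 and 0.74), Ppp1r1b is lower (r = -0.74 and -0.52), a single levodopa library is high in Ttr, and the 3 libraries high in Slc17a7 are low in Tmem212.

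The 12 genes outside the members whose arm-centred profile was most like the members' median profile, of 13011 genes with a mean of at least 1 CPM, had r from 0.96 to 0.98 over the 25 libraries. They were, in order, Ttc21a, Wdr63, Rgs22, Fhad1, Ak9, Ccdc114, Armc3, P2rx6, 1 gene with a placeholder name, Folr1, Enkur and Fam183a. Wdr63, Ccdc114, Armc3 and Enkur stand on the list of further motile cilia genes, and Folr1 on the choroid plexus list. Ccdc114, a docking protein of outer dynein arms, was at 1.64 ± 1.67 CPM in the levodopa arm (SD, n = 5) against 4.07 ± 1.48 CPM in the 15 mg/kg arm (SD, n = 10), a log2 fold change of 1.31 ± 0.54 (SE; edgeR adjusted p = 0.176). None of the 12 passed in any contrast. All had 10 of 10 libraries of the 15 mg/kg arm above the levodopa mean of log2(CPM + 1), a lower bar than the mean CPM used to count members. By mean CPM not all did, as for Enkur, with a levodopa mean of 5.21 CPM and a lowest 15 mg/kg library of 5.18 CPM. The share of all genes on the log2 scale was not computed.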

How the data were processed

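The deposited table holds raw read counts per gene, made by the authors with FastQC, STAR and HTSeq on the rat build Rnor_6.0, per the submitters' processing notes, which give no versions here. Libraries were grouped by the labels. Genes were filtered by edgeR 4.0.16's filterByExpr (14142 kept, all 71 members among them), scaled by TMM and tested with the quasi-likelihood test over all 25 libraries, with the arm as the only factor and Benjamini-Hochberg adjustment at 0.05, in R 4.3.3. CPM are counts per 1000000 of the scaled library. The members and gene lists were chosen with earlier results of these data known. Named genes were the members nearest the threshold in each contrast and direction, those listed by symbol, the 3 with the highest summed count in each role and those next to the count limit, and of each marker list the called genes or the one with the smallest p. Other members are given more briefly. Tests of a single gene were run on Tmem212, chosen after seeing the data, since Foxj1 was not analysed here. Alternatives used DESeq2 1.42.0, limma 3.58.1, other filters and scalings, subsets of libraries and a replicate block. On simulated counts for the comparison of 15 mg/kg with levodopa over 14064 genes, edgeR recovered 71.6% of 1.5-fold, 89.4% of 2-fold and 100% of 4-fold changes. The median biological coefficient of variation was 0.124 over all genes tested but 0.478 over the members. These shares are therefore not the power for the members, which was not computed. No 2 libraries agreed within sampling noise. Of 20 same-numbered pairs, 8 had deviations correlated above 0.1 (range -0.40 to 0.19), so replicate numbers were not taken as pairs. 1 gene set against Tmem212 is not reported here.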

Additional observations from a re-analysis of the deposited data

Results flagged for a closer look

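Of 117 sets of levels (1 named member in 1 arm each) tested for a single library set apart from the rest of its arm, 7 were flagged, where chance gives about 1 in 20. The number flagged is near that rate, and sets that share libraries are not independent. In the levodopa arm, replicate 4 was high for Cfap221 at 1.11 CPM (next highest 0.185 CPM) and for Spag6l at 21.5 CPM (next highest 11.2 CPM), and replicate 5 was low for Spag5 at 11.1 CPM (next lowest 13.8 CPM). In the 7.5 mg/kg arm, replicate 6 was low for Spag6l at 7.46 CPM (next lowest 13.4 CPM). Replicate 1 of that arm, the shallowest library, was low for Cfap298 at 27.0 CPM (next lowest 39.7 CPM), Cfap36 at 64.2 CPM (next lowest 92.4 CPM) and Spag7 at 29.98 CPM (next lowest 36.9 CPM). The part of depth and of the Slc17a7 level of that library (46.1 CPM) was not tested.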

How the results depend on the processing

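All values here are log2 fold changes against levodopa unless stated. At 15 mg/kg, 0 members passed with edgeR, where 0.304% of the genes tested passed as higher. DESeq2 called 2 of 71 members higher (1.53% of the genes tested) and limma-voom 13 (2.11%). With only the 2 arms fitted 3 passed as higher (0.902%), and at a threshold of 0.10 there were 2 (1.92%). Without levodopa replicate 5 and 7.5 mg/kg replicates 1 and 6, the libraries high in Slc17a7, 1 of 71 members passed, Spag6l. In that fit 2.19% of the genes tested passed as higher, and the alternative was chosen after seeing the data. Leaving out each library in turn gave 0 to 30 calls at 15 mg/kg and 0 in the other contrasts. The 30 came without levodopa replicate 4, where 2.67% of the genes tested passed as higher. The members' median then ranged from 0.73 to 1.51 at 15 mg/kg, from 0.36 to 1.13 at 7.5 mg/kg and from 0.17 to 0.47 between doses, always above 0. limma-voom gave medians of 1.41 at 7.5 mg/kg and 1.82 at 15 mg/kg, against 0.52 and 0.90 with edgeR. With the replicate number as a block, the medians were 0.21 at 7.5 mg/kg, 0.64 at 15 mg/kg and 0.39 between doses, with 0 calls in each. The near-zero values of Cfap36, Cfap97 and Rarres2 at 15 mg/kg turned sign. With limma-voom they were 0.00400, -0.0276 and 0.0115, and without levodopa replicate 2 and 7.5 mg/kg replicate 1 together 0.0259, -0.0300 and 0.0179. Without the libraries high in Slc17a7, Cfap36 was at 0.000733 and Rarres2 at 0.00753. Leaving out single libraries gave ranges of -0.0534 to 0.0259 for Cfap36, -0.0296 to 0.143 for Cfap97 and -0.0916 to 0.0179 for Rarres2. Ccdc180, Ttr and the 5 oligodendrocyte genes did not pass with the replicate block (0.71 for Ccdc180, edgeR adjusted p = 0.179). The causes were not tested. Other pseudocounts and scalings for Foxj1 were not run. For Tmem212, a pseudocount of 0.5 moved the 15 mg/kg difference from 1.47 to 1.89. Members with counts of 0 to a few reads in a library, such as Tekt5 and Cfap221, are limited by depth.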
